A study of Mus musculus with 6 samples.

Results

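Translation initiation factors are the proteins that bring the initiator tRNA and a capped mRNA to the small ribosomal subunit, find the start codon and let the large subunit join. eIF3 is a complex of many subunits that holds the small subunit open for mRNA, eIF2 carries the initiator tRNA with GTP, eIF2B recharges eIF2, and eIF4E, eIF4G and eIF4A bind the cap and unwind the mRNA. A fully grown oocyte makes its proteins from stored mRNA, and the 2-cell (2C) mouse embryo replaces that store with transcripts of its own at the maternal-to-zygotic transition (MZT), so the mRNAs of these factors pass through both a maternal and a zygotic supply. The genes described here are all rows of the deposited gene tables whose symbol starts with Eif and a digit from 1 to 6, leaving out Eif4e1b and 4 argonaute rows that carry Eif2c symbols. There were 58 such genes among 47728 gene rows, and 4 of them were pseudogenes.

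RNA-seq had been made from Kdm1a Zp3 mutant oocytes (ovulated eggs, 3 libraries), from M-Z+ 2C embryos of Kdm1a Zp3 mothers at embryonic day 1.5 (3 libraries), from control M+Z+ 2C embryos and from control oocytes. The mutant oocytes came from LSD1 FL/FL, ZP3Cre+ females, in which Cre driven by the promoter of Zp3, a gene of the oocyte's egg coat, deletes Kdm1a in the growing oocyte. M-Z+ embryos lack maternal KDM1A, an eraser of histone H3 lysine methylation, and carry a Kdm1a allele from a wild-type father, and only those that had cleaved were collected, as whole litters. Both control groups were libraries of an earlier study. They are named wild type in the series record and Kdm1a fl/fl in the study's text, and wherever mutant and control are compared, genotype and study of origin cannot be told apart. Libraries were of amplified cDNA primed with random hexamers and oligo-dT.

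Each deposited table holds 1 normalized expression value per gene and group, the authors' mean over the libraries of that group. No value per library was used here, so no difference below can be set against the spread between replicates, library depth is unknown, and every ratio is a description with no test. Ratios are log2 of one group's mean plus 1 over the other group's mean plus 1. A gene entered a comparison when its 2 means averaged at least 50, and it was counted as higher or lower when the ratio passed 2-fold. Means were scaled within each table, so a group's level differs between tables (Kdm1a had 1254 in control 2C embryos in one table and 1832 in another), and levels are compared only within a table. The 2C tables name their columns only a and b. They were read with b as the group named first in the table's title, while the legends of the study's source tables give a and b the other way round. The control oocyte columns found by the reading used here had a Spearman correlation of 1.00 across 10551 gene rows with the column named for those oocytes.

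Kdm1a itself had a mean of 6.37 in mutant oocytes and 921 in control oocytes, and of 14.5 in M-Z+ and 1254 in control 2C embryos. Of 10 oocyte marker genes fixed for this work, 9 passed the minimum in each comparison. In M-Z+ over control 2C embryos 7 of these were higher and 1 lower, with a summed level of 78879 in M-Z+ and 8902 in control 2C embryos. Of the 2C-stage markers 6 passed the minimum there, 0 were higher and 5 were lower, with sums of 1276 in M-Z+ and 4089 in control 2C embryos. In mutant over control oocytes 3 oocyte markers were higher and 0 lower (sums of 76572 and 53946), and no 2C marker passed the minimum (sums of 50.3 and 33.4). Of 12 cumulus and granulosa markers, summing to 4248 in mutant and 985 in control oocytes, 9 were at 0 in mutant and 5 in control oocytes, and only Cyp19a1 passed the minimum (4237 in mutant and 957 in control oocytes). The same list summed to 1494 in M-Z+ and 792 in control 2C embryos, with 6 at 0 in M-Z+ and 5 in control 2C embryos. Of the 3 past the minimum there, Cyp19a1 was higher (1488 in M-Z+ and 5.55 in control 2C embryos), and Amhr2 (2.23 and 551) and Gja1 (3.19 and 228) were lower. Oviduct markers summed to 7.50 in M-Z+ and 154 in control 2C embryos and to 1.24 in mutant and 4.93 in control oocytes. Sperm markers summed to 0 in M-Z+ and 0.52 in control 2C embryos and to 0 in mutant and 14.1 in control oocytes, and blood markers to 10.9 in M-Z+ and 12.6 in control 2C embryos and to 0 in both oocyte groups. In M-Z+ over control 2C embryos the 2C markers were mostly lower, as were the initiation factor genes described below, while the oocyte markers were mostly higher. What part the state shown by these markers has in the ratios of the initiation factor genes was not tested. In bulk libraries like these, fewer cells of a type and less RNA per cell cannot be told apart.

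In M-Z+ 2C embryos the initiation factor genes were lower more often than higher relative to control 2C embryos. Of 53 that passed the minimum, 28 (52.8%) were lower by more than 2-fold, against 37.5% of all 10513 gene rows, and 5 (9.43%) were higher, against 31.6% of all gene rows. Their median log2 ratio was -1.41, against -0.16 for all gene rows, and past 4-fold 24 were lower, against 27.3% of all gene rows, and 2 were higher, against 18.2%. Of the 28 lower genes 5 had an M-Z+ mean under 50, and 1 of the 5 higher genes had a control mean under 50. Such genes passed the minimum through the group where they were high and had to differ. Taken over all 58 genes, initiation factors made up 0.822% of the summed gene expression of M-Z+ and 0.911% of that of control 2C embryos.

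**Figure D1:**
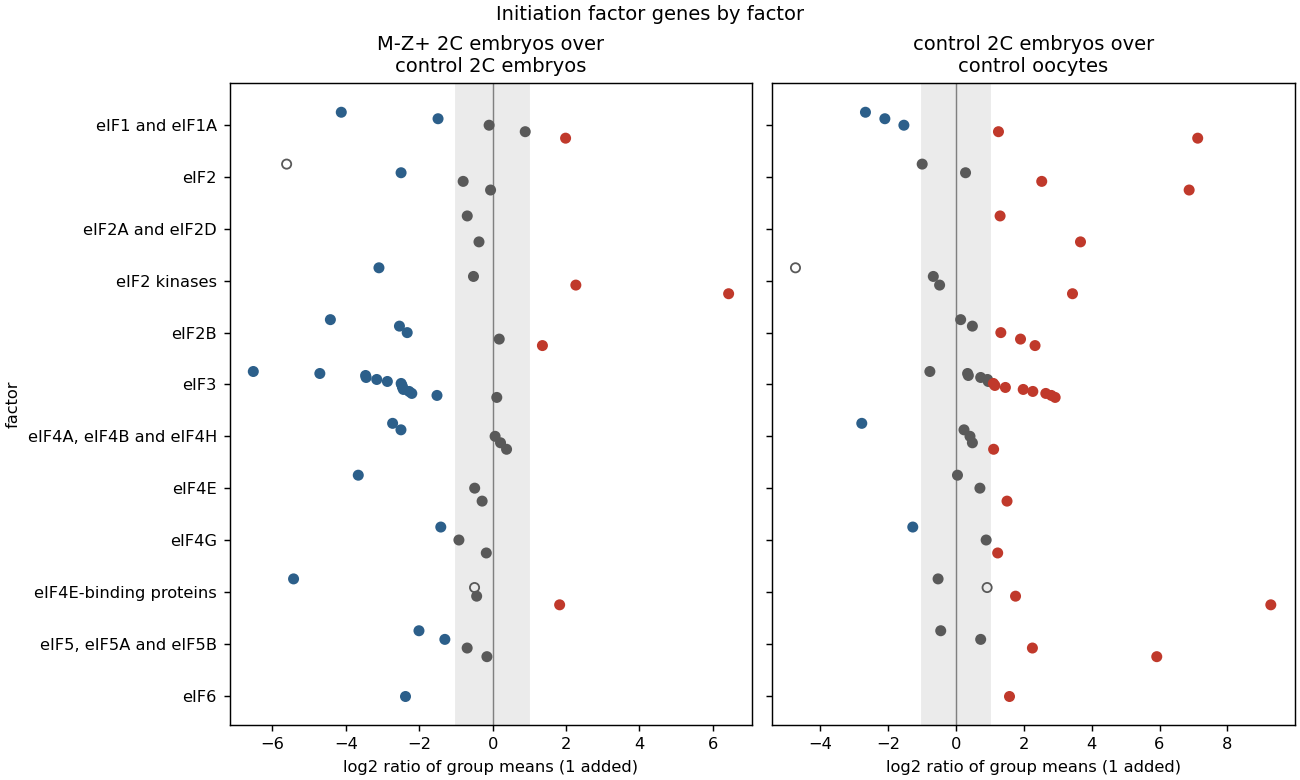
Log2 ratio of the authors' group means (1 added) for each initiation factor gene, by factor, in M-Z+ over control 2C embryos (left) and in control 2C embryos over control oocytes (right), which share the control 2C group. Each point is 1 gene, red points are higher and blue points lower by more than 2-fold, grey points lie within 2-fold (grey band), open points are under the minimum and pseudogenes are left out. On the left 13 of 14 eIF3 genes lie below the band, and on the right 8 of 14 lie above it and 0 below.

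The subunits of eIF3 were lower almost throughout. Of 14 eIF3 genes 13 were lower by more than 2-fold in M-Z+ relative to control 2C embryos, 12 of them by more than 4-fold, and 0 were higher. Among the lower genes, Eif3d, Eif3f and Eif3l had M-Z+ means under 50. They passed the minimum through control 2C embryos only and had to be lower. The median log2 ratio of the 14 genes was -2.48, and their summed mean was 6347 in M-Z+ and 34667 in control 2C embryos. Eif3a, the scaffold on which the other subunits assemble, had 1157 in M-Z+ and 12757 in control 2C embryos (-3.46). Eif3c, the other large core subunit, had 395 in M-Z+ and 4315 in control 2C embryos (-3.45). Both of these core subunits were lower by more than 4-fold. Eif3f had 14.9 in M-Z+ and 1459 in control 2C embryos, the lowest ratio of all members (-6.52). Eif3l had 43.1 in M-Z+ and 1153 in control 2C embryos (-4.71). Eif3m had 217 in M-Z+ and 1595 in control 2C embryos (-2.87). These 3 genes encode PCI- or MPN-domain subunits, as do Eif3e (599 in M-Z+ and 2760 in control 2C embryos), Eif3h (433 and 2102) and Eif3k (322 and 924), whose log2 ratios were -2.20, -2.28 and -1.52.

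Of the subunits outside this set, Eif3b, which binds both Eif3g and Eif3i, had 174 in M-Z+ and 969 in control 2C embryos (-2.47). Eif3g, an RNA-binding subunit, had 367 in M-Z+ and 2018 in control 2C embryos (-2.46). Eif3i, a WD-repeat subunit, was the exception, with 2180 in M-Z+ and 2016 in control 2C embryos (0.11). The mRNA of Eif3i was thus within 2-fold while those of both its direct neighbours in the complex were lower. Eif3d, which can itself bind the cap of some mRNAs in human cells, had 40.4 in M-Z+ and 369 in control 2C embryos (-3.16). Eif3j1 and Eif3j2, copies of the loosely bound eIF3J subunit, had ratios of -2.49 and -2.43, and their values are uncertain because 91.8% of the 50-base stretches of Eif3j2 also occur in other genes, mainly Eif3j1. Shared stretches exceeded 10% in Eif3d, Eif3h and Eif3m as well. Of the 9 eIF3 genes with fewer shared stretches, 8 were lower and 0 higher.

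**Figure D2:**
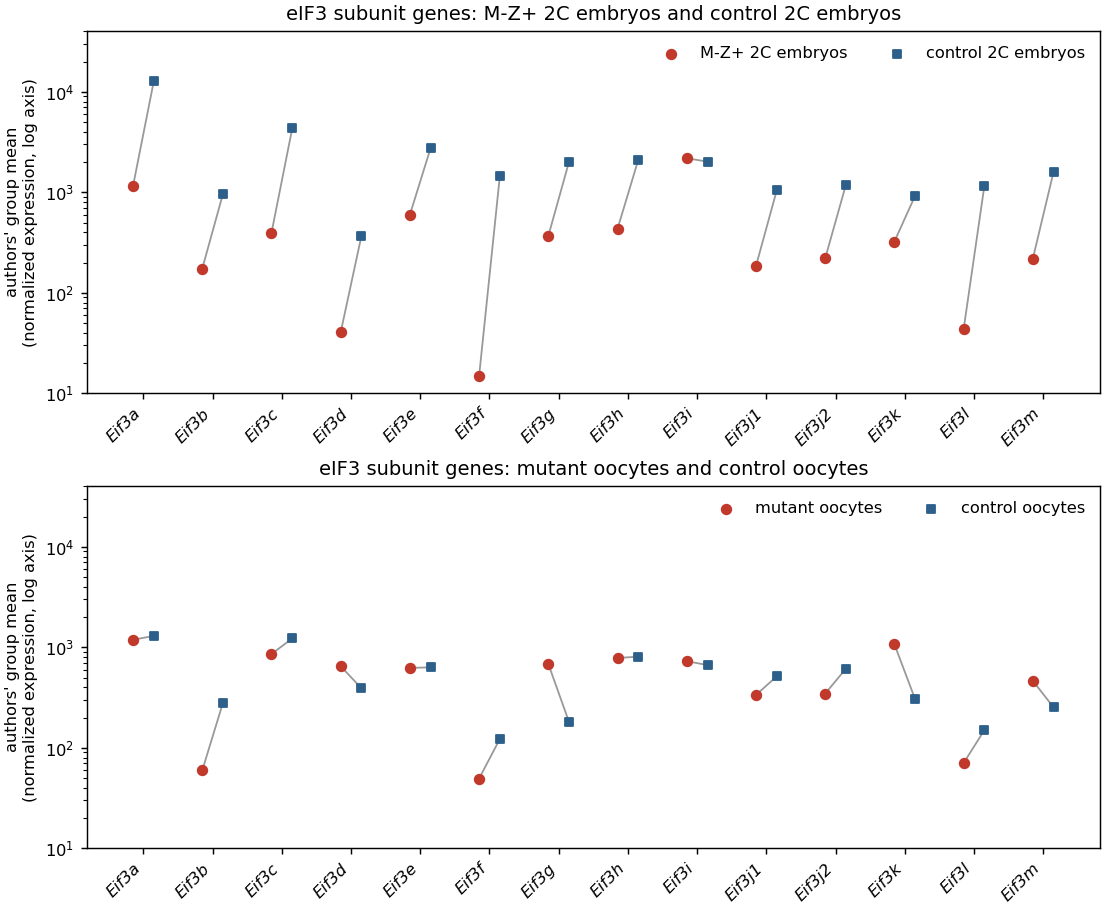
The authors' group mean of each eIF3 gene (normalized expression, log axis) in M-Z+ (red circles) and control 2C embryos (blue squares) above, and in mutant (red circles) and control oocytes (blue squares) below, with a line joining the 2 means of a gene. In the upper panel every line but that of Eif3i runs up from M-Z+ to control by more than 2-fold, and in the lower panel 2 genes (Eif3g, Eif3k) are higher and 3 (Eif3b, Eif3f, Eif3l) lower in mutant oocytes by more than 2-fold. Scales differ between the panels, so levels compare only within a panel.

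A promoter window was found for 10 of the 14 eIF3 genes. The windows of 8 are printed, because they hold either of a pair of motifs that were searched and their starts can be compared. Each is the RefSeq reference (GRCm38.p6) from 150 bases before the annotated start to 30 bases from it, 5′ to 3′ on the gene's strand. Capitals mark the letters CACGTG, which is the E-box bound by factors of the MYC and USF families, and CCGGAAG or its reverse complement CTTCCGG, which is the core bound by ETS factors. The windows are chr19:60790664-60790843 (minus strand) for Eif3a, chr7:126566337-126566516 (minus) for Eif3c, chr15:77970795-77970974 (minus) for Eif3d, chr7:108934265-108934444 (plus) for Eif3f, chr9:20898561-20898740 (minus) for Eif3g, chr7:28981859-28982038 (minus) for Eif3k, chr15:79075073-79075252 (plus) for Eif3l and chr2:105016998-105017177 (minus) for Eif3m.
Eif3a: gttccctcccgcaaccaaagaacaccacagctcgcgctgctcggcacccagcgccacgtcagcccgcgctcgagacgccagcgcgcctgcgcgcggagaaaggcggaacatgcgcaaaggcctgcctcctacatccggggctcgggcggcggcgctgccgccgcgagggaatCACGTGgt
Eif3c: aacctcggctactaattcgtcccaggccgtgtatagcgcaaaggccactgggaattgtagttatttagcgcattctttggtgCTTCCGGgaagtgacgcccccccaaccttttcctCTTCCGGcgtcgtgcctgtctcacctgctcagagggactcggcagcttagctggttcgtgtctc
Eif3d: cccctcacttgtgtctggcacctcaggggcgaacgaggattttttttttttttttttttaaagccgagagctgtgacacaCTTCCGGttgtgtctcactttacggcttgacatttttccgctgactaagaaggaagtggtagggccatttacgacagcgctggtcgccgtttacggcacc
Eif3f: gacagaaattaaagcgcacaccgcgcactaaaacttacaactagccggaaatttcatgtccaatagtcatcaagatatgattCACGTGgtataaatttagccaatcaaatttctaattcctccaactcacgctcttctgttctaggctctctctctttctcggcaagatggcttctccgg
Eif3g: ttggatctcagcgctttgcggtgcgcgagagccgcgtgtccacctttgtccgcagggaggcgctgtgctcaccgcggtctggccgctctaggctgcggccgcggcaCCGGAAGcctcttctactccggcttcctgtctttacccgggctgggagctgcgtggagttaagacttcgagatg
Eif3k: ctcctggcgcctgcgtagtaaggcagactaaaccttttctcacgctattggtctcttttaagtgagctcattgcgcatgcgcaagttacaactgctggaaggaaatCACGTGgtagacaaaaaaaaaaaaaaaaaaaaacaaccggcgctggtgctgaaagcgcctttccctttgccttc
Eif3l: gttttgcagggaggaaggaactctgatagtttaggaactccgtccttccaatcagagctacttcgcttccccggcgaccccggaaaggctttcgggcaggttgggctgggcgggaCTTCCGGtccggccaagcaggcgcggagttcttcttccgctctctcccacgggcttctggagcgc
Eif3m: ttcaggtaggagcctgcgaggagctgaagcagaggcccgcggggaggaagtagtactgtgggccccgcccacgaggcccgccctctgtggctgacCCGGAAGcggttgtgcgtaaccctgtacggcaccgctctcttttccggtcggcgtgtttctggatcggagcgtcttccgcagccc
In these windows Eif3a, Eif3f and Eif3k hold CACGTG, and Eif3c, Eif3d, Eif3g, Eif3l and Eif3m hold CCGGAAG on one strand or the other, so no window holds both. All 8 genes were lower in M-Z+ relative to control 2C embryos. The windows of Eif3b and Eif3j1, not printed, hold neither motif, and these genes were lower as well (-2.47 and -2.49). A link between motif and ratio was not tested. A promoter window of 300 bases (250 before and 50 from the start) was found for 43 of the 58 members. CCGGAAG, on either strand, was in the windows of 16 members (37.2%), against 21.3% of the 7381 genes with a window that passed the minimum in the 2C comparison and 9.93% of all 27025 genes. CACGTG, which reads the same on both strands, was in 10 (23.3%), against 12.1% and 8.09%. GGGCGG, the GC box, was in 33 (76.7%), against 68.2% and 38.2%, and the median GC content of the windows was 62.3% in members, 60.7% in the measured genes and 52.8% in all genes. CCAAT was in 15 (34.9%), against 44.2% and 41.1%, and TATAAA in 4 (9.30%), against 8.78% and 15.7%. The NRF1 motif and a YY1 motif were in 1 each (2.33%), against 2.63% and 2.64% of the measured genes and 1.07% and 1.00% of all genes. All of these were searched on both strands. A start on C followed by an unbroken run of pyrimidines of at least 5 bases, as in the TOP mRNAs whose translation follows mTOR, was found at the annotated start of Eif3f and Eif2s3x, each 11 bases long, which makes 4.65% of members, against 3.05% of the measured genes. A match describes letters in a window and not a bound site.

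Among the factors that join eIF3 on the small subunit, the ratios divided between gene copies. Eif1, which guards start codon selection, had 2797 in M-Z+ and 2990 in control 2C embryos (-0.10), and Eif1b, its close copy, had 1482 in M-Z+ and 373 in control 2C embryos (1.99). Eif1ax, the X-linked gene of eIF1A, which promotes scanning, had 2139 in M-Z+ and 1155 in control 2C embryos (0.89). Eif1a, the autosomal gene of eIF1A, had 63.5 in M-Z+ and 1124 in control 2C embryos (-4.12). The control transition, which shares the control 2C group, gave the following values for the same genes. Eif1b had 538 in control 2C embryos and 2292 in control oocytes (-2.09), and Eif1ax had 1681 in control 2C embryos and 10622 in control oocytes (-2.66). Eif1a had 1628 in control 2C embryos and 10.7 in control oocytes (7.12), and Eif1 had 4334 in control 2C embryos and 1812 in control oocytes (1.26). Eif1ad, an eIF1A domain gene, was lower in both comparisons, with 163 in M-Z+ and 458 in control 2C embryos (-1.49), and 667 in control 2C embryos and 1924 in control oocytes (-1.53).

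The 3 subunits of eIF2 did not move as a unit. Eif2s1, the alpha subunit whose phosphorylation shuts initiation down, had 827 in M-Z+ and 4666 in control 2C embryos (-2.50). Eif2s2, the beta subunit, had 4760 in M-Z+ and 4950 in control 2C embryos (-0.06). Eif2s3x, the X-linked gamma subunit, had 1595 in M-Z+ and 2785 in control 2C embryos (-0.80), with 36.2% of its 50-base stretches shared with another gene. Eif2s3y, the Y-linked gamma subunit, had 0.64 in M-Z+ and 79.3 in control 2C embryos, which left it under the minimum in that table, and it had 116 in control 2C embryos and was listed at 0 in control oocytes. An egg has no Y chromosome, so any Eif2s3y mRNA of an embryo is from its own genome. Eif2a and Eif2d, which can deliver initiator tRNA without eIF2, lay within 2-fold between M-Z+ and control 2C embryos (-0.69 and -0.37). Both were higher in M-Z+ embryos than in control oocytes. Eif2a had 1059 in M-Z+ embryos and 126 in control oocytes (3.06), and Eif2d had 380 in M-Z+ embryos and 189 in control oocytes (1.00), just past 2-fold.

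In eIF2B, the exchange factor that recharges eIF2, 3 of 5 subunits were lower and 1 was higher in M-Z+ relative to control 2C embryos. Over all gene rows 37.5% were lower and 31.6% higher, and counts over 5 genes cannot be set apart from those shares. Eif2b5, the catalytic epsilon subunit, had 37.5 in M-Z+ and 823 in control 2C embryos (-4.42), and it passed the minimum through control 2C embryos only. Eif2b3, the gamma subunit that pairs with epsilon, had 206 in M-Z+ and 1205 in control 2C embryos (-2.54), and Eif2b4, the regulatory delta subunit, had 117 in M-Z+ and 593 in control 2C embryos (-2.33). Of the other regulatory subunits, Eif2b1 (alpha) had 3255 in M-Z+ and 1271 in control 2C embryos (1.36), and Eif2b2 (beta) had 342 and 302 (0.18). Both catalytic subunits were thus lower, and the 3 regulatory subunits differed in direction. The summed mean of the 5 genes was 3958 in M-Z+ and 4193 in control 2C embryos, with Eif2b1 making up most of the M-Z+ sum.

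The 4 kinases that phosphorylate eIF2 alpha held the member with the largest positive ratio. Eif2ak2, the kinase PKR that senses double-stranded RNA, had 119 in M-Z+ and 0.39 in control 2C embryos (6.43). It passed the minimum through M-Z+ embryos only, and its log2 ratio was 3.64 with a pseudocount of 10. It had 121 in M-Z+ embryos and 28.7 in control oocytes (2.04) and was under the minimum in control 2C embryos over control oocytes (0.64 and 42.3). Eif2ak4, the kinase GCN2 that senses uncharged tRNA, had 2140 in M-Z+ and 444 in control 2C embryos (2.27), and 2179 in M-Z+ embryos and 669 in control oocytes (1.70). Both kinases were higher in M-Z+ embryos than in either control group. Eif2ak3, the endoplasmic reticulum kinase PERK, had 106 in M-Z+ and 917 in control 2C embryos (-3.10), and 1339 in control 2C embryos and 123 in control oocytes (3.44). Eif2ak1, the kinase HRI that haem inhibits, lay within 2-fold in all 4 comparisons, with ratios from -0.91 to 0.13.

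Most of the cap-binding and unwinding factors were within 2-fold between M-Z+ and control 2C embryos. Eif4e, the cap-binding protein, had 5310 in M-Z+ and 7455 in control 2C embryos (-0.49). Eif4g2, which starts translation without eIF4E, had 16032 in M-Z+ and 30314 in control 2C embryos (-0.92). Eif4a1, Eif4a2 and Eif4b, the helicases and a cofactor, had ratios of 0.38, 0.07 and 0.21. The lower genes of these families were Eif4e2, Eif4h, Eif4a3 and Eif4g1. Eif4e2, a cap-binding protein that represses mRNAs, had 66.0 in M-Z+ and 847 in control 2C embryos (-3.66). Eif4h, a helicase cofactor, had 213 in M-Z+ and 1417 in control 2C embryos (-2.73). Eif4a3, the helicase of the exon junction complex, had 403 in M-Z+ and 2281 in control 2C embryos (-2.50). Eif4g1, the main scaffold between cap and ribosome, had 1236 in M-Z+ and 3293 in control 2C embryos (-1.41), while its copy Eif4g3 had 1355 in M-Z+ and 1527 in control 2C embryos (-0.17). Eif4g3 was the lower copy at the control transition, with 2232 in control 2C embryos and 5368 in control oocytes (-1.27).

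The proteins that bind eIF4E diverged. Eif4enif1, the transporter 4E-T that holds repressed maternal mRNAs with eIF4E, had 20693 in M-Z+ and 5836 in control 2C embryos (1.83), and 21030 in M-Z+ embryos and 8078 in control oocytes (1.38). It was thus higher in M-Z+ embryos than in either control group, past 2-fold in both. Eif4ebp1, an eIF4E inhibitor that mTOR switches off, had 8.82 in M-Z+ and 421 in control 2C embryos (-5.42), and it was listed at 0 in control oocytes beside 619 in control 2C embryos. Eif4ebp2, its paralog, had 562 in M-Z+ and 761 in control 2C embryos (-0.44), and 576 in M-Z+ embryos and 218 in control oocytes (1.40). Eif4ebp3 was under 1.1 in every group.

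Of the factors of subunit joining and later steps, Eif5 (the GTPase activator of eIF2) and Eif5b (the joining GTPase) were within 2-fold in all 4 comparisons, with ratios from -0.69 to 0.73 and from -0.74 to -0.16. Eif5a, the hypusine-bearing factor that eases peptide bond formation, had 3145 in M-Z+ and 7757 in control 2C embryos (-1.30), and its copy Eif5a2 had 54.7 in M-Z+ and 223 in control 2C embryos (-2.01). Eif5a2 stood at 324 in control 2C embryos and 4.37 in control oocytes (5.92). Eif6, which keeps the large subunit from joining too early, had 597 in M-Z+ and 3127 in control 2C embryos (-2.39). Of the 4 pseudogenes, Eif4a-ps4 had 380 in M-Z+ and 242 in control 2C embryos, and 95.7% of its 50-base stretches occur in Eif4a1, so its reads cannot be kept apart from those of that gene. The other pseudogenes were under the minimum there.

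Between the control groups the direction of most members was upward. In control 2C embryos over control oocytes 27 of 54 members were higher by more than 2-fold, against 36.5% of all 11450 gene rows, and 5 (9.26%) were lower, against 34.5%. The median log2 ratio was 1.03, against 0.03 for all gene rows, and past 4-fold 14 members were higher and 3 lower, against 25.8% and 21.5% of all gene rows. Of the higher members 5 had an oocyte mean under 50, and 2 of those, Eif4ebp1 and Eif2s3y, were listed at 0 there. The pseudogene Eif3s6-ps1 (2.18) is counted among the higher members, and 34.2% of its 50-base stretches also occur in Eif3e. The 5 lower members were Eif1b, Eif1ax, Eif1ad, Eif4g3 and Eif4b, an RNA-binding cofactor of the helicase, which had 3069 in control 2C embryos and 20898 in control oocytes (-2.77). In eIF3, 8 of 14 genes were higher and 0 lower, led by Eif3f with 2115 in control 2C embryos and 277 in control oocytes (2.93), Eif3g with 2943 and 418 (2.81) and Eif3a with 18638 and 2966 (2.65). The summed eIF3 mean was 50491 in control 2C embryos and 17013 in control oocytes.

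In M-Z+ embryos over control oocytes the shares lay nearer those of all genes. Of 50 members 10 (20.0%) were higher, against 23.5% of all 9355 gene rows, and 16 (32.0%) were lower, against 28.9%, with a median of -0.51 against -0.15. Past 4-fold 2 were higher and 10 lower, against 10.6% and 14.0% of all gene rows. Of the 16 lower members 4 had an M-Z+ mean under 50, and 1 of the 10 higher members had a control oocyte mean under 50. In eIF3, 8 of 14 genes were lower and 1 higher. Of the 9 eIF3 genes with at most 10% of their 50-base stretches shared, 4 were lower and 1 higher. Eif3d, with an M-Z+ mean under 50 like Eif3f, had 41.4 in M-Z+ embryos and 599 in control oocytes (-3.82), Eif3f had 15.4 and 183 (-3.49), and Eif3i, the higher gene, had 2219 and 1001 (1.15). Eif3a, Eif3e, Eif3g, Eif3k and Eif3m were within 2-fold of control oocytes, with ratios from -0.78 to 0.42. Some members did stand higher in M-Z+ embryos than in control oocytes, among them Eif1 with 2850 and 1199 (1.25), Eif5a with 3195 and 1557 (1.04) and Eif2b1 with 3305 and 1103 (1.58). The 3 tables of 2C embryos use the same 3 groups. Apart from the scaling of each table and the 1 added, the M-Z+ ratio to control 2C embryos is therefore fixed by the other 2 ratios. The comparisons are thus not independent of each other.

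**Figure D3:**
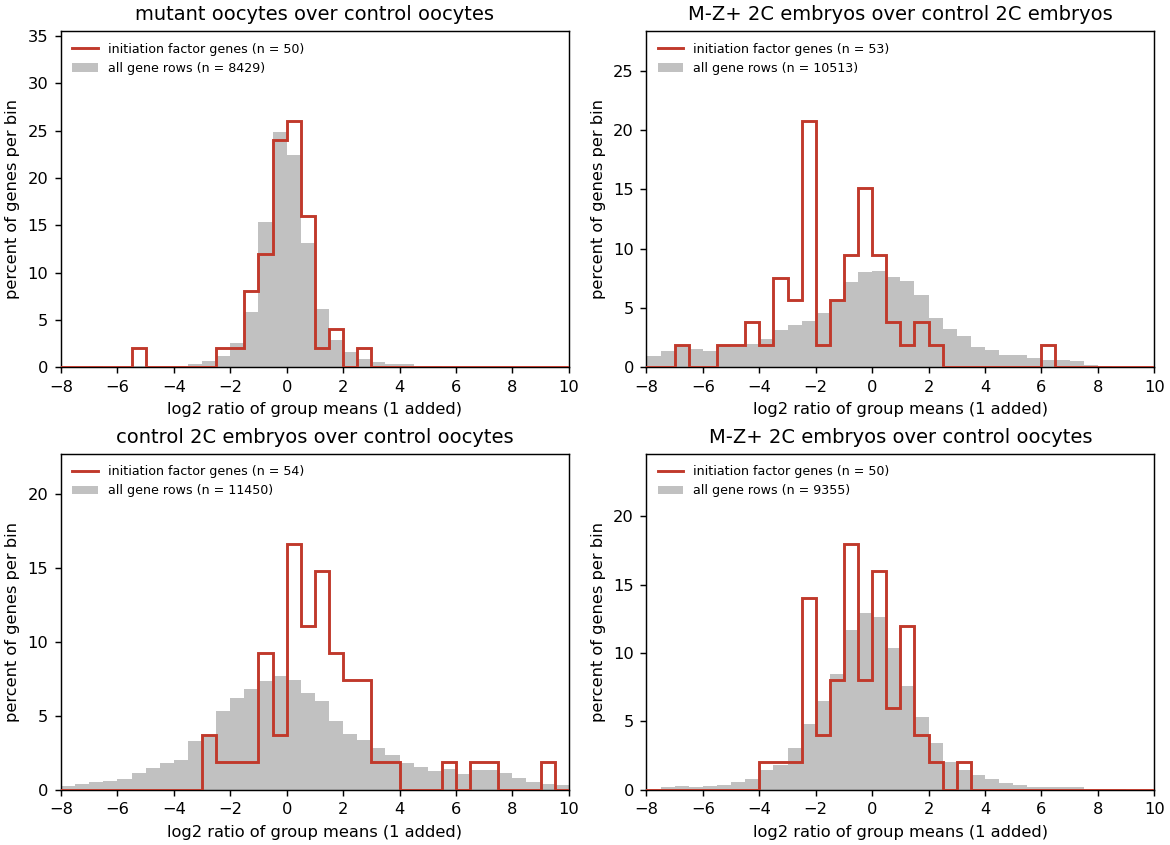
Distribution of the log2 ratio of group means (1 added) over initiation factor genes (red outline) and all gene rows past the minimum (grey), in percent of genes per bin of 0.5, for the 4 comparisons. In mutant over control oocytes the outline follows the grey histogram (medians of 0.00 and -0.02), in M-Z+ over control 2C embryos it has a peak between -2.5 and -2 (median of -1.41), and in control 2C embryos over control oocytes most of it lies above 0 (median of 1.03). Genes beyond the drawn range are not shown.

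Before fertilization the members were close to the background. In mutant over control oocytes 4 of 50 members (8.0%) were higher by more than 2-fold, against 13.2% of all 8429 gene rows, and 7 (14.0%) were lower, against 11.1%. Past 4-fold 1 was higher and 2 were lower, against 4.09% and 2.67% of all gene rows. The median log2 ratio was 0.00, against -0.02 for all gene rows, and initiation factors made up 0.824% of the summed expression of mutant and 0.799% of that of control oocytes. Of the 7 lower members 3 had a mutant mean under 50. The lowest ratio was that of Eif4ebp2, with 3.08 in mutant and 150 in control oocytes (-5.21, and -3.61 with a pseudocount of 10). The largest positive ratio was that of Eif2ak2, with 125 in mutant and 17.5 in control oocytes (2.77, and 2.30 with a pseudocount of 10). It passed the minimum through mutant oocytes only. In M-Z+ over control 2C embryos, where its ratio was also the largest, it passed through M-Z+ embryos only.

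In eIF3, 2 of 14 genes were higher and 3 lower in mutant oocytes, against 13.2% and 11.1% of all gene rows. Eif3g had 682 in mutant and 180 in control oocytes (1.91), and Eif3k had 1073 and 304 (1.82). Eif3b had 59.5 in mutant and 282 in control oocytes (-2.23), Eif3f had 49.4 and 123 (-1.29), and Eif3l had 70.3 and 150 (-1.08). Relative to control 2C embryos all 5 of these genes were lower in M-Z+ embryos, among the 13 of 14 eIF3 genes that were lower there. In eIF2B, Eif2b5 had 27.3 in mutant and 107 in control oocytes (-1.93), and Eif2b3 had 441 and 202 (1.13). Eif4h, with 276 in mutant and 636 in control oocytes (-1.20), and Eif4e3, a cap-binding protein of the eIF4E family, with 633 and 1323 (-1.06), completed the list of members past 2-fold. The other 39 lay within 2-fold, and 8 were under the minimum, of which Eif2s3y and Eif4ebp3 were at 0 in both groups.

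**Figure D4:**
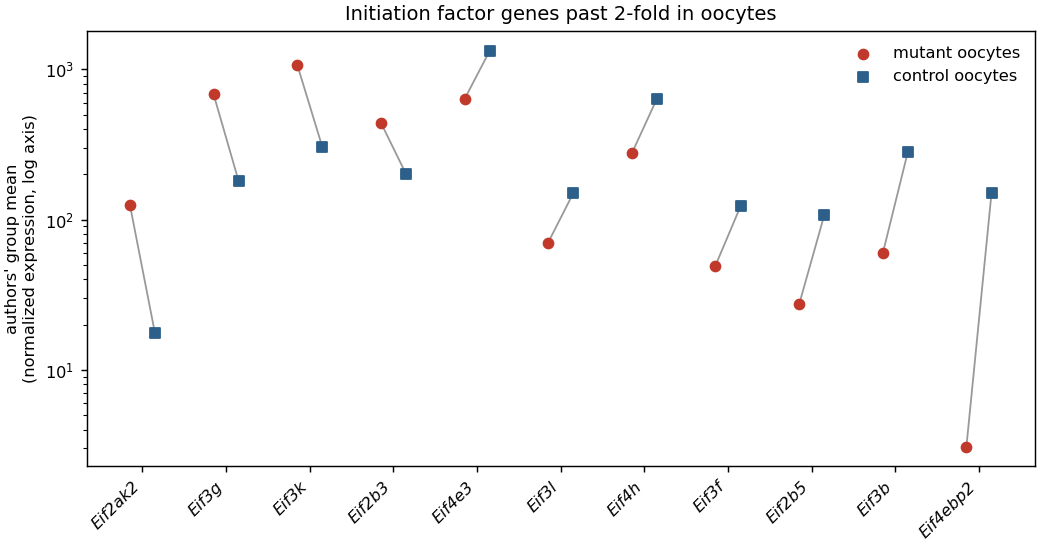
The authors' group mean (normalized expression, log axis) of the 11 initiation factor genes past 2-fold in mutant (red circles) or control oocytes (blue squares), ordered by ratio. Eif4ebp2 at the right end has 3.08 in mutant and 150 in control oocytes, and Eif2ak2 at the left end has 125 in mutant and 17.5 in control oocytes.

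Set per kilobase of the longest annotated transcript, the subunits of 1 complex were further apart in the mutant groups. Among the 14 eIF3 genes the highest level per kilobase (Eif3i, 938) was 159 times the lowest (Eif3f, 5.92) in M-Z+ 2C embryos, and the highest (Eif3a, 2489) was 17.2 times the lowest (Eif3d, 145) in control 2C embryos. The same range was 31.5-fold in mutant and 12.8-fold in control oocytes, and Eif3f was the lowest in both. Among the 5 eIF2B genes Eif2b1 was the highest in each group. It was 110 times the lowest (Eif2b5) in M-Z+ and 3.36 times the lowest (Eif2b2) in control 2C embryos, and 34.1 times the lowest in mutant and 8.60 times the lowest in control oocytes (Eif2b5 in both). The SD of log2 of the level per kilobase plus 1 over eIF3 genes was 1.94 in M-Z+ and 1.18 in control 2C embryos. It was 1.72 in mutant and 0.98 in control oocytes. These are spreads among genes, not among libraries, and mRNA levels do not give the amounts of the proteins. Eif3f and Eif2b5, the lowest genes in M-Z+ embryos, had means under 50 there. No spread over other genes was computed, so a wider spread is not shown to be particular to these complexes.

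Of 36 other genes that act with these factors (poly(A)-binding proteins, elongation and release factors, recycling factors and the mTOR and MNK kinases), 8 were higher and 16 lower in M-Z+ relative to control 2C embryos, and 16 were higher and 8 lower in control 2C embryos relative to control oocytes. Over all gene rows 31.6% were higher and 37.5% lower in the first of these comparisons, and 36.5% higher and 34.5% lower in the other. In M-Z+ embryos over control oocytes 3 were higher and 12 lower of 33 past the minimum (23.5% and 28.9% of all gene rows), and in mutant over control oocytes 2 were higher and 2 lower of 32 (13.2% and 11.1% of all gene rows). The poly(A)-binding proteins, which tie the mRNA tail to eIF4G, differed in direction. Pabpc1, the general form, had 99.4 in M-Z+ and 5349 in control 2C embryos (-5.74), and Pabpc1l, the oocyte and early embryo form, had 1975 in M-Z+ and 53.9 in control 2C embryos (5.17). Pdcd4, an inhibitor of eIF4A, had 1355 in M-Z+ and 214 in control 2C embryos (2.66), and Denr, a recycling factor that can also deliver initiator tRNA, had 31.4 in M-Z+ and 718 in control 2C embryos (-4.47).

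By position (GRCm38, GENCODE release 21 gene bounds), the eIF3 genes lie apart from each other, on chromosomes 2, 4, 5, 7, 9, 15, 18 and 19. Eif3f is on chromosome 7 from 108934417 to 108942951 and Eif3c on the same chromosome from 126546455 to 126566411. Eif3a is on chromosome 19 from 60761117 to 60790658, and Eif3i, the subunit within 2-fold, is on chromosome 4 from 129591960 to 129600648. Eif2ak2 is on chromosome 17 from 78852564 to 78882573, and Eif2b1 on chromosome 5 from 124570213 to 124579131. The values of each gene count reads over whole gene models, exons of all annotated transcripts together, so a change of isoform cannot be seen in them.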

How the data were processed

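Each deposited value is a normalized expression score, the authors' mean over the libraries of a group. Per the study's methods, only first mates were taken, trimmed to 50 bp and filtered at an average quality of 15. The authors aligned them with BBMap to mm10 gene and RepeatMasker sequences (95% identity, up to 1 indel, up to 2000 equally good alignments), down-weighted reads shared by several loci, scaled by the median in R and averaged by group. Cufflinks and DESeq are further tools in the submitters' processing notes, with no version. Further deposited columns hold the authors' fold changes, p-values and calls and were not used. Library depth is unknown, so no interval is given.

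From the means were computed log2 ratios with a pseudocount of 1, calls past 2-fold for genes whose 2 means averaged at least 50, and the same shares over all gene rows (Python 3.11.15, numpy 2.4.6, pandas 2.3.3, checked on simulated data). Values were printed for members past 2-fold and past the minimum in at least 1 comparison, by factor, and for at most 4 pathway genes. Members, gene lists and marker lists (oocyte, 2C embryo, cumulus and granulosa, oviduct, sperm, blood, pathway) were chosen with earlier results of these data known. Shared 50-base stretches were counted over the GENCODE release 21 transcripts, and 19 members had more than 10% shared. Beyond those named above they include Eif1 (31.6%), Eif4a1 (33.3%), Eif4a3 (24.4%), Eif5b (18.2%), Eif1ad (15.1%), Eif4e3 (12.8%), Eif4a2 (12.7%) and Eif2ak1 (12.1%). The values of these genes are less certain for that reason. Promoters are RefSeq windows. Repeats were not used here. Alternatives were a pseudocount of 10, no minimum, a minimum of 200, a call past 4-fold, centring on all genes, repeated symbols left out, and members with shared stretches left out.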

Additional observations from a re-analysis of the deposited data

How the results depend on the processing

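No paired analysis was possible because the tables hold group means only, and no library could be left out for the same reason. No median changed sign under any alternative run. Past 4-fold, 1 member was higher and 2 lower in mutant over control oocytes, and 2 were higher and 24 lower in M-Z+ over control 2C embryos. In control 2C embryos over control oocytes 14 were higher and 3 lower, and in M-Z+ embryos over control oocytes 2 were higher and 10 lower. The shares of all gene rows past 4-fold are given above. A minimum of 200 left 3 higher and 2 lower of 38 members in mutant over control oocytes, where the main setting gave 4 and 7 of 50. At that minimum the shares were 7.89% and 5.26% of members, against 8.42% and 7.98% of all gene rows. With no minimum the median was 0.93 in control 2C embryos and -0.13 in M-Z+ embryos over control oocytes. All gene rows had a median of -0.16 in M-Z+ over control 2C embryos and -0.15 in M-Z+ embryos over control oocytes, and relative to it the members' medians were -1.26 and -0.37. The eIF3 median in M-Z+ over control 2C embryos was then -2.32, with 13 lower and 0 higher. With members that share stretches left out, an alternative chosen after seeing the data, the median of control 2C embryos relative to control oocytes was 1.32. For M-Z+ embryos relative to control oocytes this left 35 members. Among them 10 (28.6%) were lower and 9 (25.7%) higher, against 28.9% and 23.5% of all gene rows. Of 102 called values, a pseudocount of 10 left 100 past 2-fold, the exceptions being Eif3l in mutant oocytes (-0.99) and Eif2d in M-Z+ embryos over control oocytes (0.97), and centring left 102. The size of ratios with a low mean in either group did depend on it. With a pseudocount of 10, Eif2ak2 (3.64), Eif4ebp1 (-4.52) and Eif3f (-5.88) in M-Z+ over control 2C embryos, Eif4ebp2 in mutant oocytes (-3.61), and Eif1a (6.31), Eif5a2 (4.54), Eif4ebp1 (5.97) and Eif2s3y (3.66) in control 2C embryos over control oocytes each moved by more than 1.5 times. Without values per library, the spread behind each ratio is not known here.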
